A study of Schizosaccharomyces pombe with 2 samples.

Results

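The subtelomeres of chromosomes I and II in the haploid fission yeast Schizosaccharomyces pombe were examined for DNA copy number in sap1-1 revertants. They were taken as the probes that start within 50 kb of the first position or of the last probe start of either chromosome. This gave 589 of the 41551 probes that were not controls, with 158 at the left end and 159 at the right end of chromosome I, and 116 at the left end and 156 at the right end of chromosome II. The interior of both chromosomes, with 32704 probes, served for comparison.

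The assay was array-based comparative genomic hybridization, in which differently labelled DNA of a mutant and of a control compete for the same probes. The 2 Agilent arrays each carried Cy5-labelled genomic DNA of the sap1-1 revertant and Cy3-labelled wild-type genomic DNA, both in the 972h strain background and both cut with AluI and RsaI before labelling. sap1-1 is a mutant allele of sap1, an essential DNA-binding protein with a role at replication forks, and revertant is the labels' word for the derivative studied. The 2 arrays are the 2 replicates of 1 group, on 1 slide and with the same dyes, and a probe's own response to the dyes cannot be told apart from a copy number difference. Wild-type DNA on the same array was the control, and the parent mutant was not analysed here. Nothing in the labels tells whether the 2 revertants or the 2 wild-type preparations were separate, so that p-values measure only the spread between these arrays. The arrays were not alike everywhere: over the genome 10 kb windows differed between them by -0.60 to 1.07 (replicate 2 minus replicate 1, SD 0.10), and in the ends described here by -0.15 to 0.13 (SD 0.08). Values are log2 of revertant over wild-type signal, minus the median of the array. A value of 1 stands for a 2-fold higher signal in the revertant, and a gain in some of the cells cannot be told apart from a smaller gain in all of them.

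Fission yeast telomeres are bound by shelterin, the protein complex named in the title of the series, which protects chromosome ends and recruits telomerase. Next to the telomere repeats lie subtelomeres, long stretches that are nearly the same at several ends, are packed in heterochromatin, and can recombine with each other. tlh1 and tlh2, which encode RecQ-type DNA helicases, lie closest to the telomeres. Farther in lie families of membrane protein, transporter and cell surface genes.

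How alike the ends are can be seen in the RefSeq assembly ASM294v3 of this species. The first set of bases is shown because it lies within the annotated span of a subtelomeric membrane protein gene in each of the 4 ends. The copies have not a single difference, so that a probe there would read all 4 together. The bases follow the coding strand, given as plus or minus beside the position.
Left end of chromosome I, ftm1, chrI:29764-29883, plus: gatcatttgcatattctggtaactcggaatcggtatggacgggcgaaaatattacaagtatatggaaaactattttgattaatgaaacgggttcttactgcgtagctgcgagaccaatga
Right end of chromosome I, ftm4, chrI:5567039-5567158, minus: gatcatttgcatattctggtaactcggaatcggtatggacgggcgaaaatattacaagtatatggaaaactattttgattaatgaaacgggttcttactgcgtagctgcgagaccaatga
Left end of chromosome II, ftm5, chrII:8062-8181, plus: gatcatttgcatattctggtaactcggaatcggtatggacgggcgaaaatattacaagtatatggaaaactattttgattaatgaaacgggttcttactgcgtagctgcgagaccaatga
Right end of chromosome II, SPBPB2B2.19C, chrII:4504743-4504862, minus: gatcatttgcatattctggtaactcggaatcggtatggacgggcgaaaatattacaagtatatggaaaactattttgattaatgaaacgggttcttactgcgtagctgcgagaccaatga
The longest run that was identical in all 4 ends had 630 bases, and 5001 stretches of 60 bases had an exact copy in each end. The second set of bases is shown because it ties the outermost gene of chromosome I to one that lies beyond the last probe of chromosome II. It is given opposite to the coding strand of both helicase genes.
Left end of chromosome I, tlh1, chrI:1-120, plus: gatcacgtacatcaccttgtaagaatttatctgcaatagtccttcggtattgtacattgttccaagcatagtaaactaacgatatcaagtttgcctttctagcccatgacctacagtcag
Right arm of chromosome II, tlh2, chrII:4532427-4532546, minus: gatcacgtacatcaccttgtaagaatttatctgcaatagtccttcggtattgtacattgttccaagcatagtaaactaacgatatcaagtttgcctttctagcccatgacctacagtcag
The identical run of tlh1 and tlh2 reached 5359 bases. These are sequences of the assembly and not of the probes, whose letters and genome build are not given in the sources used here.

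All 589 probes were well above background in both channels of both arrays, and 0 had an outlier flag. In either channel of either array 39 were saturated, of which 21 lay at the left end of chromosome I.

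On both arrays the ends gave more signal with revertant than with wild-type DNA. Over all 4 ends the median log2 ratio was 0.47 in replicate 1 and 0.44 in replicate 2 (0.46 ± 0.021, SD, n = 2), which is 1.37-fold, while the interior of both chromosomes had -0.03 on each array. For scale, the sequence within 10 kb of sap1 on chromosome III had 0.93 and 1.00 (0.97 ± 0.051). The difference between the ends and the interior was far larger than the spread between the arrays. The medians carry no test, because with 2 arrays the smallest p of an exact sign permutation is 0.5.

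Each of the 4 ends was higher by itself. With arrays centred on their median, the left end of chromosome I had the highest medians, 0.63 and 0.61 (0.62 ± 0.016, 1.54-fold). The right end of chromosome I had 0.44 and 0.50 (0.47 ± 0.041, 1.38-fold). The left end of chromosome II had 0.42 and 0.35 (0.38 ± 0.047, 1.31-fold). The right end of chromosome II had 0.44 and 0.41 (0.43 ± 0.021, 1.34-fold). The left end of chromosome I lay above the other ends on both arrays, and the left end of chromosome II was the lowest on both, with an SD that overlapped that of the right end of the same chromosome. The left end of chromosome I also held most of the saturated probes, and without saturated probes on any array its mean was 0.48, against 0.45, 0.36 and 0.41 for the others in the order above.

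Single probes varied widely around these medians. Of the 589 probes, 430 were above 0 on both arrays (73%; 46.2% of all probes), and 253 reached 0.5 on both (43%; 14.5% of all probes). At the other side, 65 were at -0.5 or lower on both (11%; 21.8% of all probes). The middle 50% of the probes lay between 0.02 and 0.86 as means of both arrays, and the interior probes between -0.50 and 0.33. The highest probe, 29.4 kb from the left end of chromosome I, had 1.93 and 1.79 and was saturated, so that its value is inexact. The lowest, 25.2 kb from the right end of chromosome II, had -2.55 and -2.37.

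With arrays centred on their median, the ratio fell with distance from the end. The outer 20 kb of all 4 ends together had medians of 0.73 and 0.72 over 221 probes, and the inner 30 kb had 0.35 and 0.32 over 368 probes. In the outer 20 kb the ends were close to each other, with means of 0.79 ± 0.044 and 0.73 ± 0.0003 on chromosome I (left, then right) and 0.69 ± 0.021 and 0.69 ± 0.0023 on chromosome II. In the inner 30 kb they parted, with means of 0.51 ± 0.047 and 0.37 ± 0.031 on chromosome I and 0.20 ± 0.02 and 0.27 ± 0.02 on chromosome II. From 50 to 100 kb all 4 flanks lay close together at 0.14 to 0.16, still above the interior as a whole. Just inside the 50 kb border, the windows from 45 to 50 kb had 0.33 and 0.11, 0.29 and 0.19, 0.05 and 0.05, and -0.03 and -0.23 in the order of the ends above. Just outside it, those from 50 to 55 kb had -0.18 and -0.12, 0.53 and 0.56, 0.33 and 0.20, and 0.43 and 0.26, so that the border marks a drop only on the left of chromosome I.

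**Figure D1:**
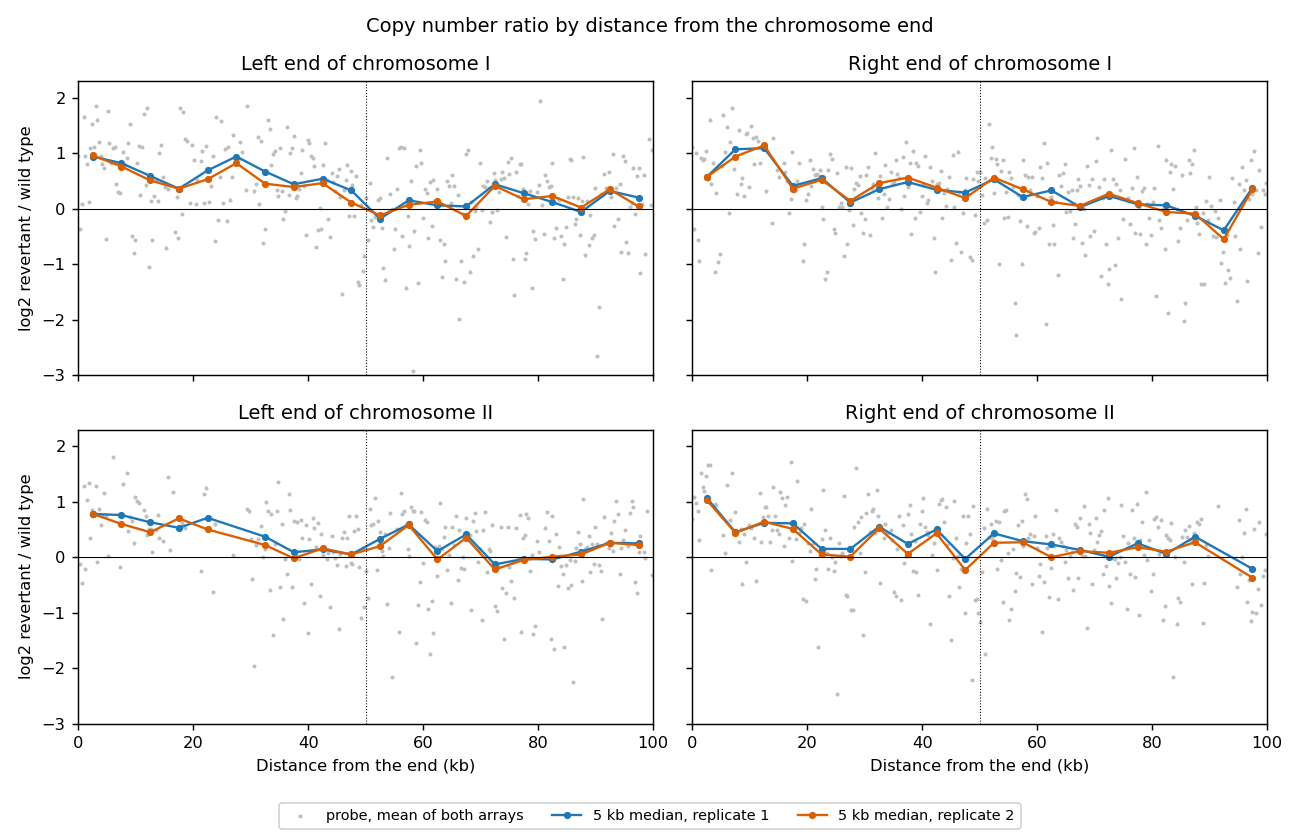
Log2 ratio of revertant over wild-type signal against the distance in kb from each of the 4 ends, counted at the right ends from the last probe start. Grey points are probes (mean of both arrays), coloured points are medians of 5 kb windows with at least 5 probes on each array, and the dotted line marks 50 kb. Both arrays trace the same profile, from between 0.57 and 1.07 in the outermost 5 kb to medians of 0.14 to 0.16 over the probes from 50 to 100 kb of each end.

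Windows of 10 kb were counted inwards from each end and tested against 0 with limma over all 1256 windows of the 3 chromosomes, with Benjamini-Hochberg adjustment at 0.05. Of the 20 windows of the ends, 19 were higher past the test (95%) and 0 were lower. Over the genome 22.6% were higher and 28.4% lower, as the test takes its error from the small spread between the 2 arrays alone. By size, 9 of the 20 windows were at 0.5 or more on both arrays (45%), against 29 of 1256 over the genome (2.31%), so that the 4 ends held 31% of all such windows. Centred on the array median, all 20 windows of the ends were above 0 on both arrays, as were 500 of the 1256 over the genome. The 990 interior windows had a median of -0.03 and ranged from -0.53 to 0.72.

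At the left end of chromosome I the 5 windows, from the outside in, had medians of 0.94, 0.54, 0.86, 0.54 and 0.38 in replicate 1. In replicate 2 they had 0.90, 0.40, 0.75, 0.42 and 0.32. The profile thus had a second rise at 20 to 30 kb, and each window was higher in replicate 1. In 5 kb steps the dip lay at 15 to 20 kb, with 0.36 on both arrays, and the second rise reached 0.94 and 0.82 at 25 to 30 kb. After loess the 10 kb windows from 0 to 30 kb had 0.36, 0.37 and 0.44 in replicate 1. In replicate 2 they had 0.26, 0.30 and 0.43, so that the dip was absent on both arrays.

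At the right end of chromosome I the 5 windows had 0.86, 0.60, 0.32, 0.37 and 0.33 in replicate 1. In replicate 2 they had 0.71, 0.73, 0.30, 0.51 and 0.27. Centred on the array median, the fall came between the second and the third window. After loess the second window had 0.34 and 0.23 and the third 0.40 and 0.33, so that this fall was absent. Before loess the highest values did not lie at the very end. The outermost 5 kb had 0.57 on both arrays, while 5 to 10 kb had 1.07 and 0.94 and 10 to 15 kb had 1.09 and 1.14. Beyond 50 kb single 5 kb windows still departed from 0, down to -0.39 and -0.55 at 90 to 95 kb.

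At the left end of chromosome II the 5 windows had 0.77, 0.59, 0.75, 0.34 and 0.11 in replicate 1. In replicate 2 they had 0.72, 0.55, 0.68, 0.20 and 0.12. The values stayed high over 30 kb and then fell to the lowest inner window of this end, which still passed the test (adjusted p = 0.014 in limma). After loess the window from 30 to 40 kb had 0.46 and 0.36. It then lay above the outermost window (0.31 and 0.24) and that from 10 to 20 kb (0.30 and 0.29). The innermost window stayed the lowest, with 0.10 and 0.06. This end was thinly covered, with 17 probes at 10 to 20 kb and 8 at 20 to 30 kb, where other windows held 25 to 34.

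At the right end of chromosome II the 5 windows had 0.85, 0.61, 0.15, 0.44 and 0.30 in replicate 1. In replicate 2 they had 0.81, 0.54, 0.04, 0.42 and 0.24. The window from 20 to 30 kb was the 1 of the 20 that did not pass (0.09 ± 0.079, limma adjusted p = 0.054), with higher windows on both sides of it. This window stayed the lowest of the end after loess, with 0.03 and -0.02. Centred on the array median, the outermost 5 kb on the array reached 1.07 and 1.03. The last probe of chromosome II starts 29.3 kb before the end of ASM294v3. Distances at this end thus do not count from the end of the chromosome.

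The length of the raised stretch was read as the number of consecutive 5 kb windows, from the end inwards, at 0.25 or more. It was 50 and 45 kb in replicates 1 and 2 at the left end of chromosome I and 25 kb in both at the right end. It was 35 and 30 kb at the left end of chromosome II, over windows of as few as 3 probes, and 20 kb in both at the right end. The count stops at the first lower window, and higher windows can lie beyond it. At the right end of chromosome I that window had 0.11 and 0.14, and the next 0.35 and 0.46. Of the 10 windows within 50 kb, 10 and 9 reached 0.25 on the left of chromosome I and 9 and 8 on the right. On chromosome II they were 7 and 6 on the left and 6 on both arrays on the right. The longest stretch lay at the same end on both arrays, and the edges are no sharper than the 5 kb step. The stretch at the right end of chromosome II leaves out the sequence beyond the last probe, so that its length cannot be compared with the others.

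Of the single probes, 404 were higher past limma over all probes (68.6%; 40% of all probes) and 116 were lower (19.7%; 40.8% of all probes).

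The ends stood apart in their brightness too, which is the signal of the wild-type DNA alone. The median wild-type signal of the end probes was 2382 and 2431 in replicates 1 and 2, against 1115 and 1124 in the interior. In the outer 20 kb it was 4382 and 4402, and in the inner 30 kb 1620 and 1631. Of the end probes 29.7% fell in the brightest 10% of all probes. Over the 20 windows the ratio rose with log2 brightness (Pearson's r = 0.84, Spearman's rho = 0.89, n = 20). This is a description, since the windows share the arrays and much of their sequence.

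When probes of like wild-type brightness were compared, end probes lay above interior probes in each of the 10 deciles on both arrays. In the brightest decile the 175 end probes had medians of 0.93 and 0.86, and the 2844 interior probes had 0.07 and 0.16. In the dimmest decile the 35 end probes had 0.10 and 0.06, and the interior probes -0.28 and -0.27. The gap was smallest in decile 8, at 0.30 and 0.22 against 0.16 and 0.20. The median of bright interior probes thus did not reach that of bright end probes.

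**Figure D2:**
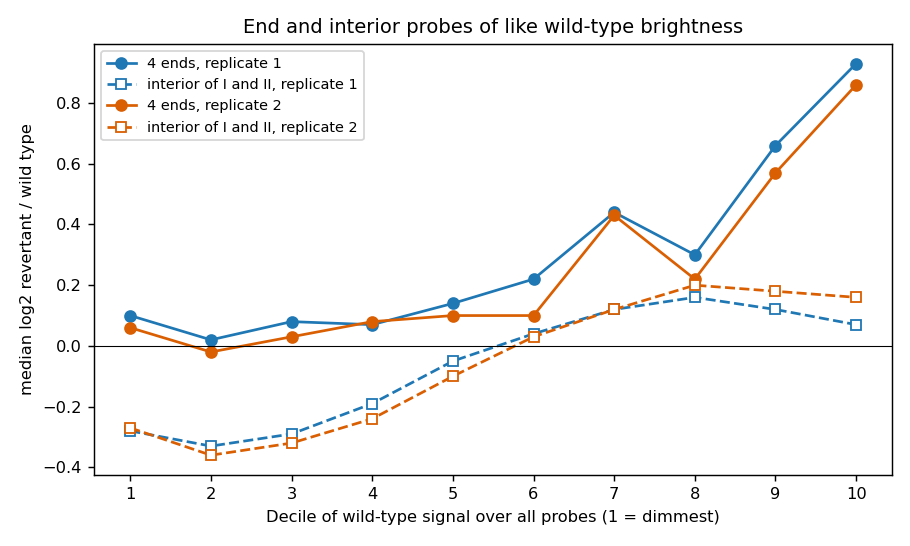
Median log2 ratio of the probes of the 4 ends (filled) and of the interior of chromosomes I and II (open) in each decile of wild-type signal over all probes, from dimmest to brightest, for both arrays. The end probes lie above the interior probes of the same array in all 10 deciles, most of all in the brightest, where they have 0.93 and 0.86 against 0.07 and 0.16.

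The size of the shift depended on how the arrays were centred. After loess within arrays, which removes a trend of the ratio with the average signal of both channels, the mean over the 4 ends was 0.29 ± 0.039. The ends then had 0.30, 0.32, 0.27 and 0.24 in the order above, so that the left end of chromosome I was no longer the highest and the left end of chromosome II no longer the lowest. The fall with distance was small after loess, from 0.34 ± 0.058 in the outer 20 kb to 0.26 ± 0.01 in the inner 30 kb. By end, in the same order, the outer and inner means were 0.32 and 0.29, 0.34 and 0.30, 0.27 and 0.25, and 0.44 and 0.09. Only the right end of chromosome II kept a clear fall. The count of windows at 0.5 or more on both arrays fell from 9 to 0 (1.27% of all windows after loess). By limma 18 of 20 windows were higher, against 28.2% of all windows, and 59.2% of all windows passed in either direction. With each probe centred on its own decile of wild-type brightness, an alternative chosen after seeing the data, the mean was 0.43 ± 0.06 and 7 windows reached 0.5 on both arrays (2.07% of all windows). The outer 20 kb then had 0.63 ± 0.078 and the inner 30 kb 0.32 ± 0.0077. The stretch around sap1, whose wild-type signal was 1380 and 1410, kept 0.88 after loess and 1.00 with brightness deciles. What part brightness has in the end ratios was not tested.

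**Figure D3:**
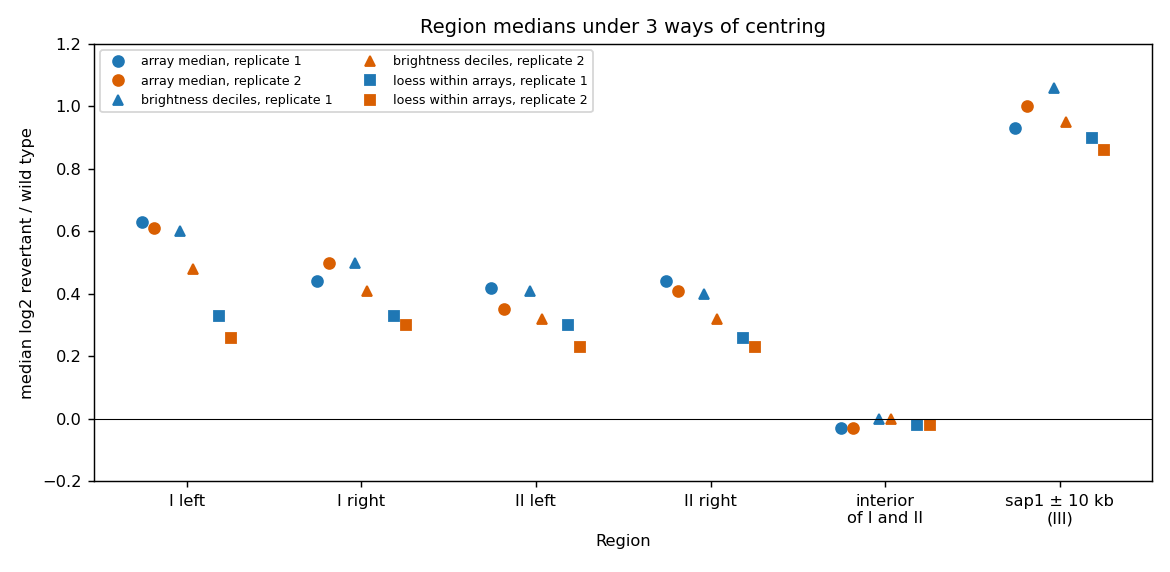
Median log2 ratio of each end, of the interior and of sap1 with 10 kb on each side, per array, under centring on the array median (circles), on deciles of wild-type brightness (triangles) and after loess within arrays (squares). All 4 ends stay above 0 on both arrays in every setting shown, the left end of chromosome I drops most (from 0.62 to 0.30 on average after loess), and sap1 goes from 0.97 to 0.88.

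Much of the sequence of the ends had copies at other ends. Repeated sequence was counted in ASM294v3 as bases that align elsewhere in the assembly over at least 100 bases at 90% identity or more, with array positions taken as approximate. It covered 91.7% and 44.3% of the ends of chromosome I (left, then right), and 59% and 38.9% of those of chromosome II. In the interior of both chromosomes it covered 2.67%. The right end of chromosome II was counted from the last probe start, and 85.1% of the bases beyond that start were repeated. The left end of chromosome I had copies of 54.1% of its length at the left end of chromosome II, the longest over 14983 bases at 99.6% identity. It shared 40.4% with the part of chromosome II beyond the last probe, the longest over 12696 bases at 99.8% identity. The right end of chromosome I shared 21.5% with the left end of chromosome II, over up to 10751 bases at 99.3% identity. The ends of chromosome II shared up to 10667 bases at 99.6% identity with each other. A probe in such a stretch reads the sum of all copies, so that the ratios of the 4 ends are not independent of each other or of copies that lie off the array's map.

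The windows fell into classes by repeated sequence. In 12 windows at least 50% of the bases were repeated, and these had a median of 0.69 (0.35 to 0.92, means of both arrays) and wild-type signals of 2420 to 5595. The other 8 windows had a median of 0.29 (0.09 to 0.44) and wild-type signals of 739 to 1570. All 9 windows at 0.5 or more on both arrays were in the first class. Over the 20 windows the ratio and the repeated share had r = 0.82, as a description. These values are centred on the array median, and after loess the classes overlapped widely. The first class then had 0.11 to 0.53 in replicate 1 and -0.01 to 0.43 in replicate 2. The second had 0.03 to 0.46 and -0.02 to 0.36. The 8 windows with little repeated sequence had wild-type signals around the interior median given above. Centred on the array median, all 8 were above 0 on both arrays, as were 500 of the 1256 windows over the genome. By limma 7 of the 8 were higher, against 22.6% over the genome. At the left end of chromosome I repeated sequence reached through the whole 50 kb. It gave way to single-copy sequence at about 20 kb at the right end of chromosome I and at about 30 kb at the left end of chromosome II. At the right end of chromosome II it did so about 20 kb from the last probe start, which is not the end of the assembly. Repeated sequence and brightness moved together, and their separate parts in the ratio cannot be told apart over these windows.

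**Figure D4:**
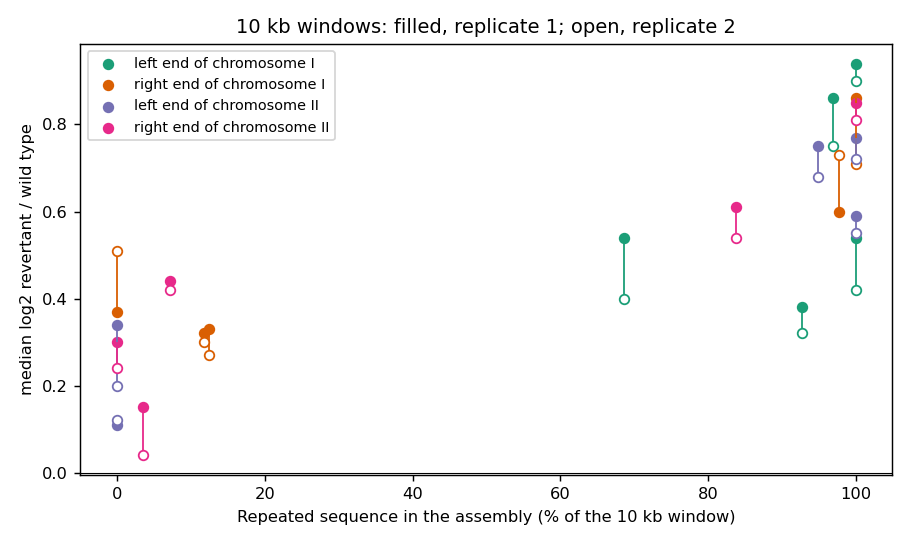
Median log2 ratio of each 10 kb window of the 4 ends against the share of its bases that are repeated elsewhere in the assembly, with replicate 1 filled, replicate 2 open and a line joining them. Centred on the array median, the 12 windows with at least 50% repeated sequence average between 0.35 and 0.92 and the 8 others between 0.09 and 0.44.

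Genes were read through the probes from 5 kb before to 5 kb after each, because array positions differ from the assembly by up to a few kb. The neighbourhoods overlap, so that genes are not independent values. All 67 protein-coding genes of the ends were above 0 on both arrays, as were 1799 of the 5112 genes in the genome. At 0.5 or more on both were 29 of the 67 (43.3%), against 1.64% of the 5112. The median of the 67 was 0.50, and that of all genes -0.01. Centred within brightness deciles, 22 of the 67 were at 0.5 or more on both arrays (32.8%; 1.51% of all genes). Genes were not read after loess. In their own sequence 47 of the 67 had at least 50% repeated bases, against 160 of the 5112.

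Of the helicase genes, tlh1 (chrI:1-5662 in ASM294v3) had 0.94 and 0.90 (0.92 ± 0.029). tlh2 (chrII:4526885-4532899) starts about 16.4 kb beyond the last probe start and was not read at its own place. Its bases were 94.1% repeated, and tlh1, which holds the identical run shown above, reads both genes. The protein-coding genes nearest to the other ends were also high. SPAC750.08C, annotated as an NAD-dependent malic enzyme at the right end of chromosome I, had 0.77 and 0.57 over 19 probes. SPBC1348.15, an uncharacterized gene at the left end of chromosome II, had 0.75 on both arrays over 16 probes. SPBCPT2R1.02, an uncharacterized gene and the outermost one read at the right end of chromosome II, had 1.05 and 0.99, the highest of the 67.

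The ftm genes encode predicted membrane proteins and are spread over all 4 ends. All 7 of them were at 0.5 or more on both arrays, with means from 0.52 to 0.85, where 1.64% of all genes were. Centred within brightness deciles, 5 of the 7 were, and 1.51% of all genes; ftm6 (0.64 and 0.43) and ftm7 (0.43 and 0.38) were not. At the left end of chromosome I ftm2 had 0.90 and 0.81, and ftm1 had 0.83 and 0.79. At the right end ftm4 had 0.73 and 0.74, and ftm3 had 0.60 and 0.73. At the left end of chromosome II ftm5 had 0.74 and 0.68, and ftm6 had 0.70 and 0.53. ftm7 at the right end of chromosome II was the lowest, with 0.51 and 0.54. ftm1, ftm4 and ftm5 hold the identical bases shown above, and they differed from each other by 0.10 at most in their means.

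The other genes with a symbol at the left end of chromosome I lie in its innermost 10 kb. pfl6, a cell surface glycoprotein gene 42.1 kb from the end, had 0.54 and 0.45. ayr2, annotated as a dehydrogenase, had 0.36 and 0.27. plb4, a phospholipase gene 45.9 kb from the end, had 0.07 and 0.01 and was the lowest of the 67, although 100% of its bases were repeated. These 3 lie in the stretch of 14983 bases shared with the left end of chromosome II, where genes with the same annotated products lie in the same order. Their counterparts, named here after their values were seen, were SPBC1348.08C, a glycoprotein gene with 0.52 on both arrays over 8 probes, SPBC1348.09 with 0.34 and 0.31, and SPBC1348.10C with 0.34 and 0.24. The first pairs were close to each other, and plb4 was below its counterpart on both arrays. The neighbourhoods of both reach beyond the shared stretch, that of plb4 into the window from 50 to 55 kb, which had -0.18 and -0.12.

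The remaining genes with a symbol had no repeated bases. At the right end of chromosome I gdt1 had 0.37 and 0.50 and pdc102, a pyruvate decarboxylase gene, had 0.34 and 0.30. At the left end of chromosome II ght7, a hexose transporter gene, had 0.16 and 0.14, and fah1, annotated as an acetamidase, had 0.09 on both arrays. gdt1 thus lay above the repeated genes ayr2 and plb4 in its mean, and ght7 and fah1 lay below ayr2. All other repeated genes with a symbol, which are tlh1, pfl6 and the ftm genes, lay above gdt1 in their means.

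The right end of chromosome II holds the genes of galactose use, which lie in or beside the window that did not pass the test. gal10, the epimerase gene, had 0.17 and 0.07, and tgd1, which overlaps it, had 0.17 and 0.10. gal7, the uridylyltransferase gene, had 0.22 and 0.18. gal1, the galactokinase gene, had 0.25 and 0.23 and was named after its values were seen, to complete the cluster. Farther in, pan5, a gene of pantothenate synthesis, had 0.34 and 0.42, and say1, a sterol deacetylase gene, had 0.28 and 0.22. The cluster thus lay below ftm7 on its outer side and pan5 on its inner side on both arrays, while gal1 and say1 were close to each other.

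**Figure D5:**
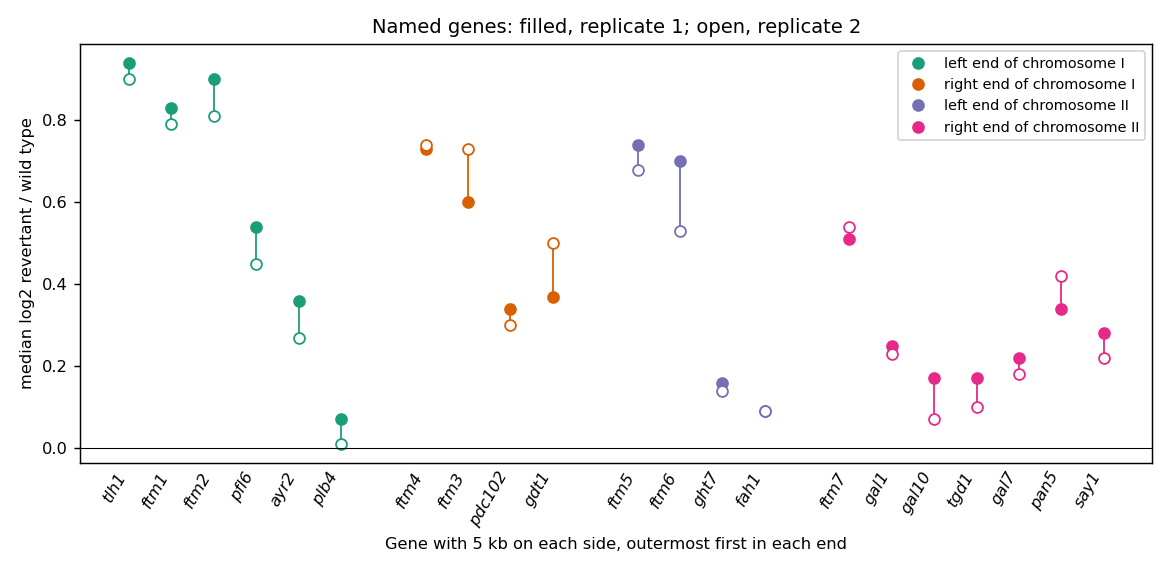
Median log2 ratio over each gene with 5 kb on each side, for all 21 genes of the 4 ends that have a symbol, with replicate 1 filled and replicate 2 open. Genes are ordered from the outside in within each end, and the outer genes tlh1 and ftm1 to ftm6 lie above the inner genes of the same end on both arrays.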

How the data were processed

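Per the file headers and the submitters' processing notes, spots were measured with Agilent Feature Extraction (10.10.1.1 in the headers). Its deposited processed signals are intensities, background-subtracted and dye-normalized by a linear factor per channel. The deposited log10 ratio equalled log10 of red over green within 4.2e-07 and served only as this check. The log2 ratios of the authors' deposited series table were averages over 5 neighbouring probes (100% of values within 0.001), uncentred, with column medians of -0.0030 and -0.0127. The deposited spot flags mark saturated, outlier and dim spots.

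Log2 of red (Cy5, revertant) over green (Cy3, wild type) was centred on the array median, which was 0.09 and 0.08. Loess was left to an alternative, since true copy number shifts can go 1 way. The 13 probes with an outlier flag, none of them in the ends, were left out of windows, genes, limma and the counts over all probes. They were not removed from the array median, the values given for the interior or the comparison by decile. Probes and medians of 10 kb windows (at least 5 probes, counted from the nearer end) were tested against 0 with limma 3.58.1 (intercept fit, eBayes, adjusted p under 0.05 after Benjamini-Hochberg) in R 4.3.3, and the step was tested on simulated data. The number of arrays limits the precision. Python 3.11.15, numpy 2.4.6, pandas 2.3.3, matplotlib 3.10.9 and BLAST+ 2.17.0 were used. The normexp alternative (offset 50) used median in place of the planned mean spot signals.

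For the probe positions, the genome build is not given in the sources used. Shifts against ASM294v3 were estimated from the GC content of 60 bp stretches. They were 4320 to 4500 bp at the right end of chromosome I, where genes and repeats were placed by distance from the assembly's own end, and -1680 to -1560 bp at the right end of chromosome II. At the left ends they were -800 to -660 bp from 50 kb inwards and not clear within 50 kb. No position was converted.

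Named were tlh1, tlh2, the protein-coding gene nearest to each end, and the 3 highest and 3 lowest genes with a symbol per end. The probes, lists and tests were chosen with earlier results of these data known. Alternatives were normalization, background, centring, saturated probes, the authors' table, end and window length, probe minimum, mean and leaving out each array.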

Additional observations from a re-analysis of the deposited data

How the results depend on the processing

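The medians of the 4 ends and of each single end stayed above 0 in every setting that gave a value. The pooled median of 0.46 was 0.29 after loess, 0.43 with normexp, 0.50 in the authors' table, 0.42 without saturated probes, 0.49 centred on the interior, 0.43 within brightness deciles (added after seeing the data), 0.72 for ends of 20 kb and 0.39 as a mean. In the order left and right of chromosome I, then left and right of chromosome II, the ends had 0.30, 0.32, 0.27 and 0.24 after loess, 0.79, 0.73, 0.69 and 0.69 over 20 kb, and 0.54, 0.37, 0.31 and 0.32 as means. The left end of chromosome I had 0.58 with normexp, 0.69 in the authors' table, 0.48 without saturated probes, 0.65 centred on the interior and 0.54 within brightness deciles. The right end of chromosome I had 0.43 with normexp, and the right end of chromosome II had 0.46 centred on the interior and 0.36 within brightness deciles. Leaving out either array gave 0.44 to 0.47 for all ends, 0.61 to 0.63, 0.44 to 0.50, 0.35 to 0.42 and 0.41 to 0.44 for the single ends, and 10 to 11 windows at 0.5 or more. That window count of 9 was 0 after loess (1.27% of all windows, from 2.31%) and 7 to 11 in the other settings of 10 kb windows. The cause was not tested. limma called 18 to 20 of 20 windows in settings of at least 5 probes and 10 kb, where it called 40.2% (without saturated probes) to 84.7% (means in place of medians) of all windows. With 1 array left it has no residual degrees of freedom and gave no value. Revertant and wild-type DNA were paired within each array through the ratio, and no further pairing was possible because the series holds 1 group. With 2 arrays, 1 slide and no dye swap, dye and slide effects cannot be separated from copy number, and saturated probes bound the brightest values.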
